A study of Mus musculus with 10 samples.

Results

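The potassium channel genes of heart and skeletal muscle described here are 10 genes, Kcnj2, Kcnj3, Kcnj5, Kcnj11, Abcc9, Kcnq1, Kcnh2, Kcnd2, Kcna5 and Kcnip2. They were chosen by name for the currents they carry or shape, with earlier results of these data known. All 10 were found by symbol among the 23337 genes of the count files. Bulk RNA-Seq of polyA RNA was made from left ventricle (LV) and skeletal muscle (SkM) of 5 mice, 1 library per mouse and tissue. The 2 WT and 3 E0del/+ mice were hybrids of C57BL/6 and 129SvEv, and E0del/+ mice carry on 1 allele a deletion of E0, a conserved element in intron 1 of Ttn. An age of 17 weeks is taken for all 10 libraries from a legend of the study on LV of E0del/+ mice, because the labels give no age. That legend may be about other mice than these hybrids. A batch tag in the labels equals the replicate number, so that batches 1 and 2 hold a mouse of each genotype and batch 3 an E0del/+ mouse alone. Whole tissue was used, and the muscle that was sampled is not named. Total gene counts per library ranged from 11010021 to 17484873, with a median of 14050602.

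Levels are counts per 1000000 gene counts of the library (CPM), and libraries are named by genotype, tissue and replicate. Values are given in the order WT 1, WT 2, E0del/+ 1, E0del/+ 2 and E0del/+ 3. Ttn, the gene that holds the deleted element, was at 7959, 9344, 7737, 5560 and 6597 CPM in LV. In SkM, Ttn was at 24205, 15856, 20092, 18854 and 13585 CPM. The 3 E0del/+ libraries lay below both WT libraries in LV, whereas the genotypes overlapped in SkM. The higher of the WT values in LV, 9344 CPM, is from WT LV 2, a library that held many SkM transcripts, and WT LV 1 at 7959 CPM was close to E0del/+ LV 1 at 7737 CPM.

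Potassium channels set the resting potential of muscle cells and end their action potentials. Inward rectifiers hold the cell near rest, voltage-gated channels open during the action potential and repolarise it, and ATP-sensitive channels couple excitability to the energy state of the cell. Most pore-forming subunits work with accessory subunits that change their gating, drug response or transport to the membrane.

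The tissue labels were checked against marker genes. The summed level of 6 ventricle markers, led by Myh6, was 75794 to 85259 CPM in LV without WT LV 2 and 204 to 2282 CPM in SkM, where Actc1 was their most abundant gene. The 7 fast-fibre markers, led by Myh4, summed to 104872 to 115628 CPM in SkM and to 108 to 123 CPM in 4 of the 5 LV libraries. WT LV 2 stood apart, with 26151 CPM of the fast-fibre markers and 58214 CPM of the ventricle markers. From the 7 fast-fibre genes, SkM transcripts made up an estimated 21.7% of that library, taking E0del/+ SkM 3 as their source. No other source was used, and the estimate depends on it, since genes such as Tnni2 (3446 to 6059 CPM) differed between SkM libraries. Because of its SkM transcripts, the WT LV 2 library was kept out of the tissue comparison together with its SkM partner. Values over all 5 mice are given for the counts and for the genes that moved most. The Y-linked Ddx3y also set a library apart, since the mouse WT 1 had 0.384 CPM of it in LV and 12.5 CPM in SkM, where the other mice with Xist, the transcript of the inactive X chromosome, had 0.333 and 0.369 CPM and those without Xist 94.1 and 108 CPM. Without WT replicate 1, the tissue comparison still called 9 of the 10 genes, 7 higher in LV and 2 lower.

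Markers of other cells differed between libraries of 1 tissue, and none of the genes on the lists was at 0 in all libraries of either tissue except Hba-a1 (1 of the 2 blood genes in the files). Without WT LV 2, the 4 atrial markers summed to 222 to 594 CPM in LV, most of it Nppa, and to 5.42 to 17.2 CPM in SkM. The 6 markers of conduction tissue summed to 53.8 to 59.4 CPM in LV and to 4.52 to 14.2 CPM in SkM. Endothelial markers (4 genes, led by Cdh5) were at 982 to 1697 CPM in LV against 92.0 to 200.2 CPM in SkM. Mural-cell markers (5 genes, led by Rgs5) were at 557 to 985 CPM against 75.0 to 236 CPM. These vascular markers were thus higher in CPM in every one of these LV libraries than in any SkM library. The 4 Schwann-cell markers summed to 15.0 to 33.4 CPM in LV and 17.8 to 95.4 CPM in SkM. The adipose markers, 5 genes led by Cfd, summed to 1.57 to 20.96 CPM in these LV libraries, 245 CPM in WT LV 2 and 7.84 to 1037 CPM in SkM. Alas2, the blood gene with counts, was at 24.1 to 31.6 CPM in LV and 2.52 to 19.99 CPM in SkM. In whole tissue, fewer cells of a type and less RNA per cell cannot be told apart.

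Of the 10 genes, 8 encode pore-forming subunits and 2, Abcc9 and Kcnip2, encode accessory subunits. Pore-forming subunits carry a signature of the selectivity filter, the stretch of the pore that passes potassium and holds back sodium. The 27 bases around its 5 codons, which are in capitals, are shown for 7 of them because they are what these coding sequences share beyond the rule by name. They are from GRCm38 with the GENCODE M21 transcripts and are written 5′ to 3′ on the coding strand.
Kcnj2: cagacaACCATTGGCTATGGTttcagg
Kcnj3: gaggccACCATCGGCTATGGCtaccgc
Kcnj5: gaaacaACCATTGGGTATGGCttcaga
Kcnj11: caggtgACCATTGGTTTCGGCgggcgc
Kcnh2: ctcaccAGCGTGGGCTTTGGCaatgtc
Kcnd2: atgacaACACTGGGGTATGGCgacatg
Kcna5: atgaccACTGTAGGCTACGGGgacatg
The signature occurred 1 time in each of these 7 coding sequences and in neither Abcc9 nor Kcnip2, while no result is reported for Kcnq1. The stretches lie at chr11:111072201-111072227 (plus strand, Kcnj2), chr2:55437621-55437647 (plus, Kcnj3), chr9:32322553-32322579 (minus, Kcnj5), chr7:46099490-46099516 (minus, Kcnj11), chr5:24325549-24325575 (minus, Kcnh2) and chr6:126533739-126533765 (minus, Kcna5). In Kcnd2 the stretch runs across an intron, between 21217400 and 21714147 of chromosome 6 on the plus strand.

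The 10 genes lie on 7 chromosomes of mm10 in the coordinates of the files. Kcnj2 spans chr11:111066164-111076825, Kcnj3 chr2:55437156-55595525, Kcnj5 chr9:32314783-32344237, Kcnj11 chr7:46097123-46100764 and Abcc9 chr6:142587862-142702274. Kcnq1 spans chr7:143107254-143427042, Kcnh2 chr5:24319589-24351604, Kcnd2 chr6:21216109-21729805, Kcna5 chr6:126532551-126535555 and Kcnip2 chr19:45793670-45815803. In 3 of the 10, exons overlap an antisense transcript, whose reads cannot be told apart from those of the gene in these unstranded libraries. Kcnq1 shares 121 of 3029 exon bases with Kcnq1ot1, which had 507 to 968 counts per library. Abcc9 shares 158 of 7538 exon bases with 5330439B14Rik, which had 2 to 14 counts. Kcnj3 shares 705 of 1679 exon bases with Gm26794, which the count files do not list.

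LV was compared with SkM over 4 mice, each giving both tissues, to ask which channel genes mark each muscle. Differences are log2 of LV over SkM with the standard error (SE) of the edgeR fit, after scaling by TMM (trimmed mean of M values), and p-values are adjusted over all 13375 genes tested. The scaling matters for genes with small differences, because the median of all genes was 0.02 with TMM and 0.67 with library totals, a shift of 0.65. Between 12.5% and 14.5% of an LV library fell on its 10 leading genes, against 27.2% to 29.5% of a SkM library. All 10 channel genes were tested and 9 passed an adjusted p of 0.05, of which 7 were higher in LV and 2 lower. Among all genes tested, 8202 (61.3%) passed, 4211 of them higher in LV (31.5% of those tested) and 3991 lower (29.8%). The median difference was 4.69 for the 10 genes, between the values of Kcnh2 and Kcnq1. For genes with few counts in SkM, the fitted difference depends on prior counts. With library totals, 9381 genes passed, 7683 higher and 1698 lower, and the 10 genes gave 8 higher and 1 lower. Over all 5 mice with TMM, 8255 of 13283 genes passed, and the 10 genes again gave 7 higher and 2 lower. Their differences then ran from -1.08 (Kcnj2) to 8.07 (Kcnj5), and Kcnd2 moved most, from 6.55 to 6.93.

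**Figure D1:**
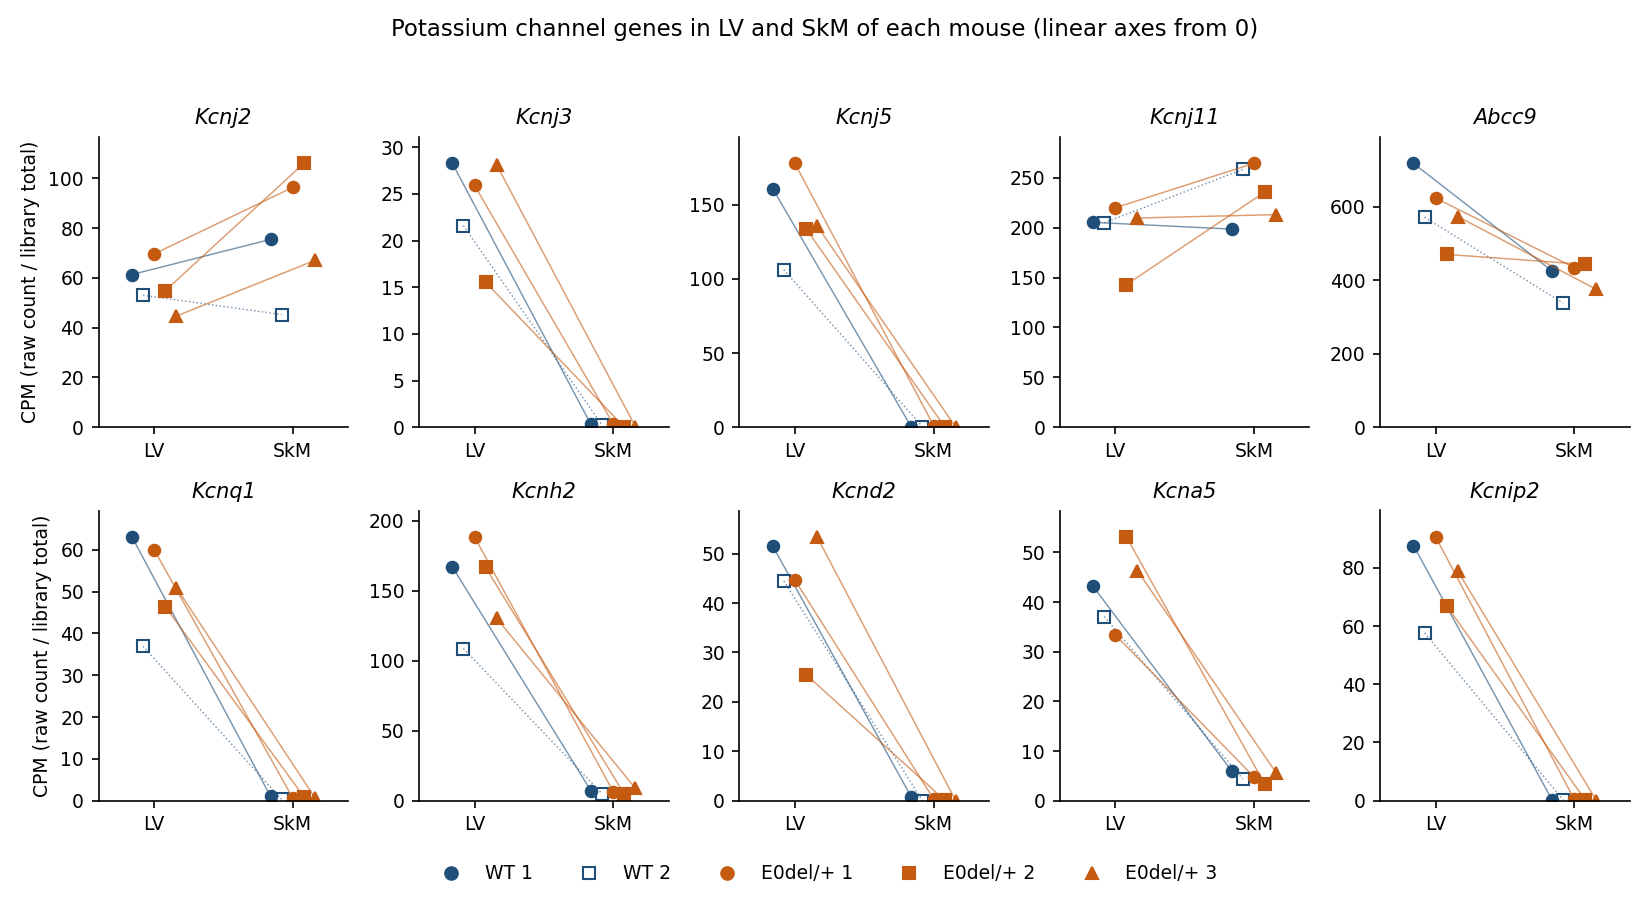
Level of each of the 10 genes in each library (CPM, linear axes from 0 that differ between panels), with LV and SkM of a mouse joined by a line and WT 2 in open squares. For 7 genes the SkM libraries lie close to 0 beside LV, while Kcnj2, Kcnj11 and Abcc9 are at 44.7 CPM or more in every library.

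Kcnj2 encodes a pore-forming subunit of the inward rectifier that sets the resting potential (IK1). In LV it was at 61.4, 53.0, 69.7, 54.9 and 44.7 CPM. Levels in SkM were 75.5, 45.3, 96.4, 106 and 67.1 CPM. The SkM library was the higher in every mouse but WT 2, although the ranges of the tissues overlapped. Kcnj2 differed by -1.23 (SE 0.18, adjusted p 0.000729), with LV higher in 0 of the 4 mice. With library totals, the difference was -0.58 (adjusted p 0.00496), still past the threshold.

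Kcnj3 and Kcnj5 encode the subunits of the channel that acetylcholine opens through G proteins (IKACh), best known from atrium and sinus node. Kcnj3 was at 28.3, 21.6, 25.9, 15.5 and 28.1 CPM in LV. In SkM its raw counts were 4, 4, 6, 0 and 1, and the count of 0 in E0del/+ SkM 2 allows up to 0.200 CPM. Every LV library was thus far above every SkM library. Over the 4 mice, the ratio of summed CPM was 134 (95% Clopper-Pearson interval 74.4 to 268), and the fitted difference was 6.42 (SE 0.38, adjusted p 9.15e-06). Intervals and limits of this kind cover counting error only.

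Kcnj5 was at 161, 106, 178, 134 and 136 CPM in LV. In SkM its raw counts were 1, 5, 18, 4 and 0, and the count of 0 in E0del/+ SkM 3 allows up to 0.211 CPM. All LV libraries were high and all SkM libraries near 0, with WT LV 2 the lowest LV library and E0del/+ SkM 1 the highest SkM library at 1.11 CPM. The ratio of summed CPM was 399 (interval 266 to 629), with a fitted difference of 8.06 (SE 0.46, adjusted p 8.01e-06). Without E0del/+ replicate 1, the fitted difference was 9.50, and with DESeq2 in place of edgeR it was 9.01. The atrial markers were highest in E0del/+ LV 2 and E0del/+ LV 3, at 594 and 437 CPM, whereas Kcnj3 was highest in WT LV 1 and lowest in E0del/+ LV 2, and Kcnj5 was highest in E0del/+ LV 1. The part of atrial or conduction cells in the level of these genes was not tested.

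Kcnj11 encodes the pore-forming subunit of the ATP-sensitive channel (KATP), and Abcc9 encodes SUR2, the regulatory subunit that binds nucleotides and channel-opening drugs. Kcnj11 was at 205, 205, 220, 143 and 210 CPM in LV. SkM had 199, 258, 264, 236 and 213 CPM. The tissues overlapped, E0del/+ LV 2 was below all other libraries, and LV was higher only in WT 1. With TMM, Kcnj11 differed by -0.89 (SE 0.20, adjusted p 0.00689), and with library totals by -0.24 (adjusted p 0.165), no longer past the threshold.

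Abcc9 was at 717, 571, 623, 470 and 573 CPM in LV. The SkM libraries were at 425, 338, 434, 443 and 374 CPM. On this scale, every LV library exceeded every SkM library. The fitted difference of Abcc9 changed direction with the scaling, from -0.16 with TMM (SE 0.20, adjusted p 0.523) to 0.49 with library totals (adjusted p 0.0120). With TMM it was also 0.071 without E0del/+ replicate 2.

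Kcnq1, Kcnh2 and Kcna5 encode voltage-gated pores that repolarise the action potential. Kcnq1, the pore of the slow delayed rectifier (IKs), was at 63.1, 36.9, 60.0, 46.4 and 51.0 CPM in LV. In SkM it had 14, 5, 10, 14 and 10 counts, or 1.01, 0.286, 0.615, 0.933 and 0.704 CPM. Every LV library was far above every SkM library, and WT LV 2 was the lowest in LV. The ratio of summed CPM was 69.0 (interval 51.9 to 93.8) and the fitted difference 5.42 (SE 0.22, adjusted p 1.48e-06).

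Kcnh2, the pore of the rapid delayed rectifier (IKr) and the target of many drugs that prolong the QT interval, was at 167, 109, 188, 167 and 130 CPM in LV. Levels in SkM were 7.05, 4.98, 6.52, 4.73 and 8.87 CPM. The tissues did not overlap, yet Kcnh2 was above the limit that a count of 0 allows in all SkM libraries. Its difference was 3.95 (SE 0.20, adjusted p 3.98e-06), a ratio of summed CPM of 24.4 (interval 22.1 to 27.1).

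Kcna5, the pore of the ultra-rapid delayed rectifier (IKur), was at 43.2, 37.1, 33.4, 53.1 and 46.3 CPM in LV. SkM libraries had 5.97, 4.40, 4.80, 3.26 and 5.63 CPM. All LV libraries were above all SkM libraries, and E0del/+ mouse 2 had the highest LV level and the lowest SkM level. The difference of 2.51 (SE 0.17, adjusted p 1.60e-05) was the smallest of the 7 genes higher in LV.

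Kcnd2 encodes a pore of the transient outward current (Ito) that makes the early repolarisation of the mouse ventricle, and Kcnip2 encodes KChIP2, the calcium-binding subunit that brings such pores to the membrane. Kcnd2 was at 51.5, 44.5, 44.7, 25.5 and 53.4 CPM in LV. In SkM its counts were 10, 0, 6, 2 and 0, so that WT SkM 1 held most of them and the libraries at 0 allow up to 0.172 CPM (WT SkM 2) and 0.211 CPM (E0del/+ SkM 3). LV was far higher in every mouse, with E0del/+ LV 2 the lowest. The ratio of summed CPM was 146 (interval 92.1 to 247) and the fitted difference 6.55 (SE 0.42, adjusted p 1.23e-05), or 7.16 without WT replicate 1.

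Kcnip2 was at 87.7, 57.7, 90.7, 66.9 and 78.9 CPM in LV. In SkM it had 3, 4, 7, 3 and 0 counts. All LV libraries were high and all SkM libraries at a few counts or none, with WT LV 2 the lowest in LV. The ratio of summed CPM was 375 (interval 219 to 705) and the fitted difference 7.87 (SE 0.33, adjusted p 1.77e-06). The intervals of Kcnip2 and Kcnj5 overlapped, and without WT replicate 1 the fitted difference of Kcnip2, at 7.80, was above that of Kcnj5, at 7.70.

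To compare levels between genes, CPM were divided by the summed exon length in kb. In LV without WT LV 2 (mean ± SD, n = 4), the level per kb was highest for Kcnip2 at 99.7 ± 13.1, followed by Abcc9 at 79.0 ± 13.7 and Kcnj11 at 59.8 ± 10.7. Kcnip2 has a model of 813 bp in the files, which equals its coding length with the stop codon. Next came Kcnh2 at 38.6 ± 5.73 and Kcnj5 at 33.8 ± 4.70. Below these, Kcnq1 was at 18.2 ± 2.56, Kcna5 at 14.6 ± 2.73, Kcnj3 at 14.6 ± 3.60, Kcnj2 at 10.6 ± 1.94 and Kcnd2 at 9.63 ± 2.80. The ranges of neighbours in this order overlapped except between Kcnj5 and Kcnq1. In SkM (n = 5), Kcnj11 led at 72.0 ± 8.72 per kb, ahead of Abcc9 at 53.4 ± 5.97 and Kcnj2 at 14.3 ± 4.42, with no overlap between these neighbours. Kcna5 at 1.60 ± 0.356 and Kcnh2 at 1.52 ± 0.399 followed with overlapping ranges, and the other 5 genes had means of 0.265 per kb or less. The KATP pair was thus among the 3 highest of the 10 genes per kb in both tissues.

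Ratios of subunits within a library do not depend on its scaling. For 7 pairs of subunits known to work in 1 channel type or to be alternatives in it, the log2 ratio per kb in LV was compared with that in SkM over the 4 mice, with 0.5 counts added. An exact two-sided permutation of signs over 4 mice has 16 patterns, of which at least 2 are as extreme as the data, so that no p under 0.05 can be reached. Adjusted over the 7 pairs, p was 0.146 for the 6 pairs at that limit and 0.250 for Kcnj3 to Kcnj5. The ratio of Kcnj11 to Abcc9 was 0.663, 0.832, 0.818, 0.705 and 0.848 in LV. Its values in SkM were 1.08, 1.77, 1.41, 1.24 and 1.32. Every LV library was below 1 and every SkM library above it, so that Kcnj11 exceeded Abcc9 per kb of the exon models in SkM alone. The difference of the log2 ratio was -0.74 ± 0.079 (SD, n = 4, exact permutation, 2 of 16 patterns), lower in LV in all 4 mice, and -0.81 over all 5 mice. The ratio leaves out the related Abcc8, at a mean of 118 CPM in LV and 6.72 CPM in SkM of the 4 mice. It is a ratio of whole tissue, and the part of mural cells, whose markers were higher in LV, in the level of Abcc9 was not tested.

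Kcnj8, which encodes the other KATP pore, known from vascular smooth muscle and pericytes, was at 46.6, 30.2, 42.2, 65.1 and 35.8 CPM in LV. Levels in SkM were 6.91, 3.60, 6.09, 7.66 and 5.70 CPM. LV was higher in all mice, and E0del/+ mouse 2 had the highest level in both tissues. The log2 ratio of Kcnj8 to Kcnj11 was higher in LV by 3.06 ± 0.53 (SD, n = 4, exact permutation, 2 of 16 patterns), with mean ratios of 0.359 in LV and 0.0432 in SkM. The endothelial markers were also highest in LV in E0del/+ LV 2, at 1697 CPM, where the mural-cell markers were at 934 CPM. The mural-cell markers were at 985 CPM in WT LV 1, 572 CPM in WT LV 2, 717 CPM in E0del/+ LV 1 and 557 CPM in E0del/+ LV 3, so that the pair of LV libraries with the highest Kcnj8 also had the highest mural-cell markers, in the opposite order. Their part in the level of Kcnj8 was not tested.

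Kcnj12 encodes an alternative subunit of the IK1 channel and was at 37.1, 40.0, 35.0, 20.8 and 32.9 CPM in LV. SkM libraries were at 68.4, 54.7, 67.3, 68.5 and 63.4 CPM. It was higher in SkM in all 5 mice. The log2 ratio of Kcnj2 to Kcnj12 was higher in LV by 0.55 ± 0.17 (SD, n = 4, exact permutation, 2 of 16 patterns) in 4 of 4 mice, with mean ratios of 0.837 and 0.574. Both transcripts were lower in LV with either scaling, Kcnj12 by -1.76 with TMM and -1.12 with library totals.

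The remaining pairs rest on counts near 0 in SkM, where their ratios depend on the counts added. Kcnd2 to Kcnip2 was lower in LV by a log2 ratio of -1.16 ± 0.81 (exact permutation, 2 of 16 patterns) in all 4 mice, but not in WT 2. The mean was -0.37 over all 5 mice and -0.76 without WT replicate 1. Kcnj3 to Kcnj5 gave -2.29 ± 2.02 (exact permutation, 4 of 16 patterns, lower in LV in 3 of 4 mice), with -3.07 without E0del/+ replicate 2 and -1.69 without WT replicate 1. Kcne1 encodes the small subunit that slows Kcnq1 channels, and was at 11.5, 3.33, 7.10, 8.81 and 5.58 CPM in LV and at 0 in every SkM library except E0del/+ SkM 2, with 1 count. The log2 ratio of Kcnq1 to Kcne1 was lower in LV by -1.46 ± 0.66 (exact permutation, 2 of 16 patterns), in all 4 mice. Kcne2, a partner of Kcnh2, had 1 count in WT LV 2 and in E0del/+ LV 1 and 0 elsewhere, so the difference of 3.97 ± 0.72 (exact permutation, 2 of 16 patterns) for Kcnh2 to Kcne2 rests on Kcnh2 and the added counts. In all, 6 of the 7 pairs had the same sign in all 4 mice, and 5 in all 5 mice. Without added counts, 3 pairs did, since 4 pairs hold a count of 0.

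**Figure D2:**
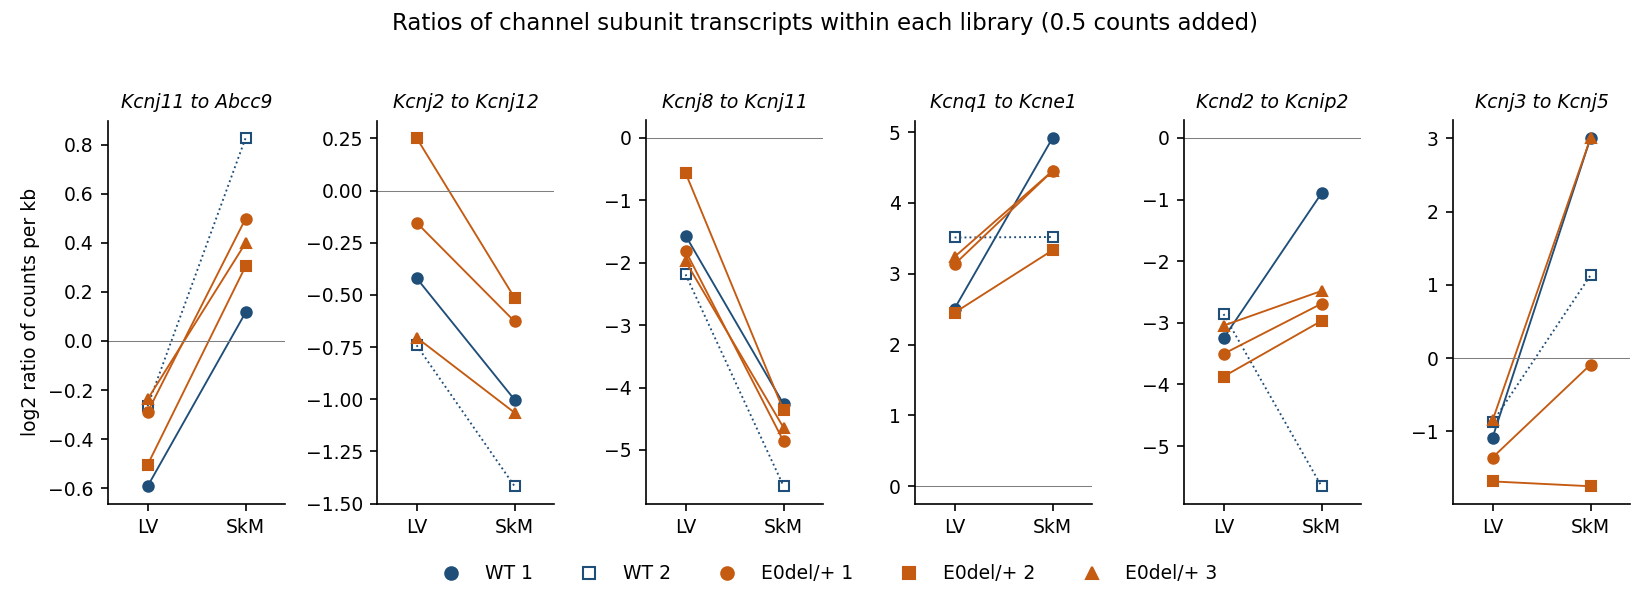
Ratio of counts per kb (log2, axes differ between panels) of 6 subunit pairs in each library, with LV and SkM of a mouse joined by a line and WT 2 in open squares. Every LV library is below 0 and every SkM library above 0 for Kcnj11 to Abcc9.

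The 10 genes were set beside the whole family, 96 genes by symbol, of which 51 passed the filter on low counts and 45 did not. Of the 51, 27 were higher in LV, 17 lower and 7 not called, while of all genes tested 31.5% were higher and 29.8% lower. Outside the 10 genes, 41 of 86 were tested, with 20 higher and 15 lower. With library totals the family counts were 30 and 15, and over all 5 mice with TMM 27 and 16. The genes named next are the 5 outside the 10 with the largest difference in each direction among those with at least 1 CPM in every library of the higher tissue, which held for 18 genes higher in LV and 13 higher in SkM.

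Outside the 10 genes, Kcne1 differed by 7.77 toward LV, or by 9.56 without E0del/+ replicate 2, the only mouse with a count of it in SkM. Kcng2, a modifier subunit that forms no channel alone, was at 224 to 268 CPM in 4 LV libraries and at 0.141 to 1.23 CPM in SkM (log2 7.76). Kcnd3, another pore of Ito, was at 28.0 to 32.9 CPM against 0 to 0.216 CPM (7.50). Kcnv2, also a modifier, was at 33.7 to 46.7 CPM against 0 to 0.369 CPM (7.06). Kcnk3, a background channel sensitive to acid, was at 516 to 648 CPM against 0.343 to 12.0 CPM (6.14). None of these 5 overlapped between tissues.

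In the opposite direction, Kcnf1, a modifier subunit, was at 7.66 to 21.1 CPM in SkM and at 0 to 0.130 CPM in 4 LV libraries (log2 -8.28). Kcnc4, a fast voltage-gated pore, was at 101 to 156 CPM against 0.538 to 1.48 CPM (-7.88). Kcng4, a modifier, was at 48.0 to 139 CPM against 0.0872 to 1.27 CPM (-7.22). Kcnma1, the pore of the large calcium-activated channel, was at 44.1 to 69.3 CPM against 0.349 to 0.911 CPM (-7.19), and Kcnc1, a fast pore like Kcnc4, was at 126 to 150 CPM against 1.45 to 5.84 CPM (-6.34). In WT LV 2 these 5 genes were between the tissues, at 4.77, 25.9, 32.5, 12.7 and 34.6 CPM in the order named. Over all 5 mice, their differences were -5.62 for Kcnf1, -6.72 for Kcnc4, -5.97 for Kcng4, -5.96 for Kcnma1 and -5.61 for Kcnc1, so that Kcnc4 was then the furthest from 0 of the 5. Kcnf1 gave -10.52 without E0del/+ replicate 1, the only one of the 4 mice with counts of it in LV, and Kcng4 gave -6.57 without E0del/+ replicate 3.

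**Figure D3:**
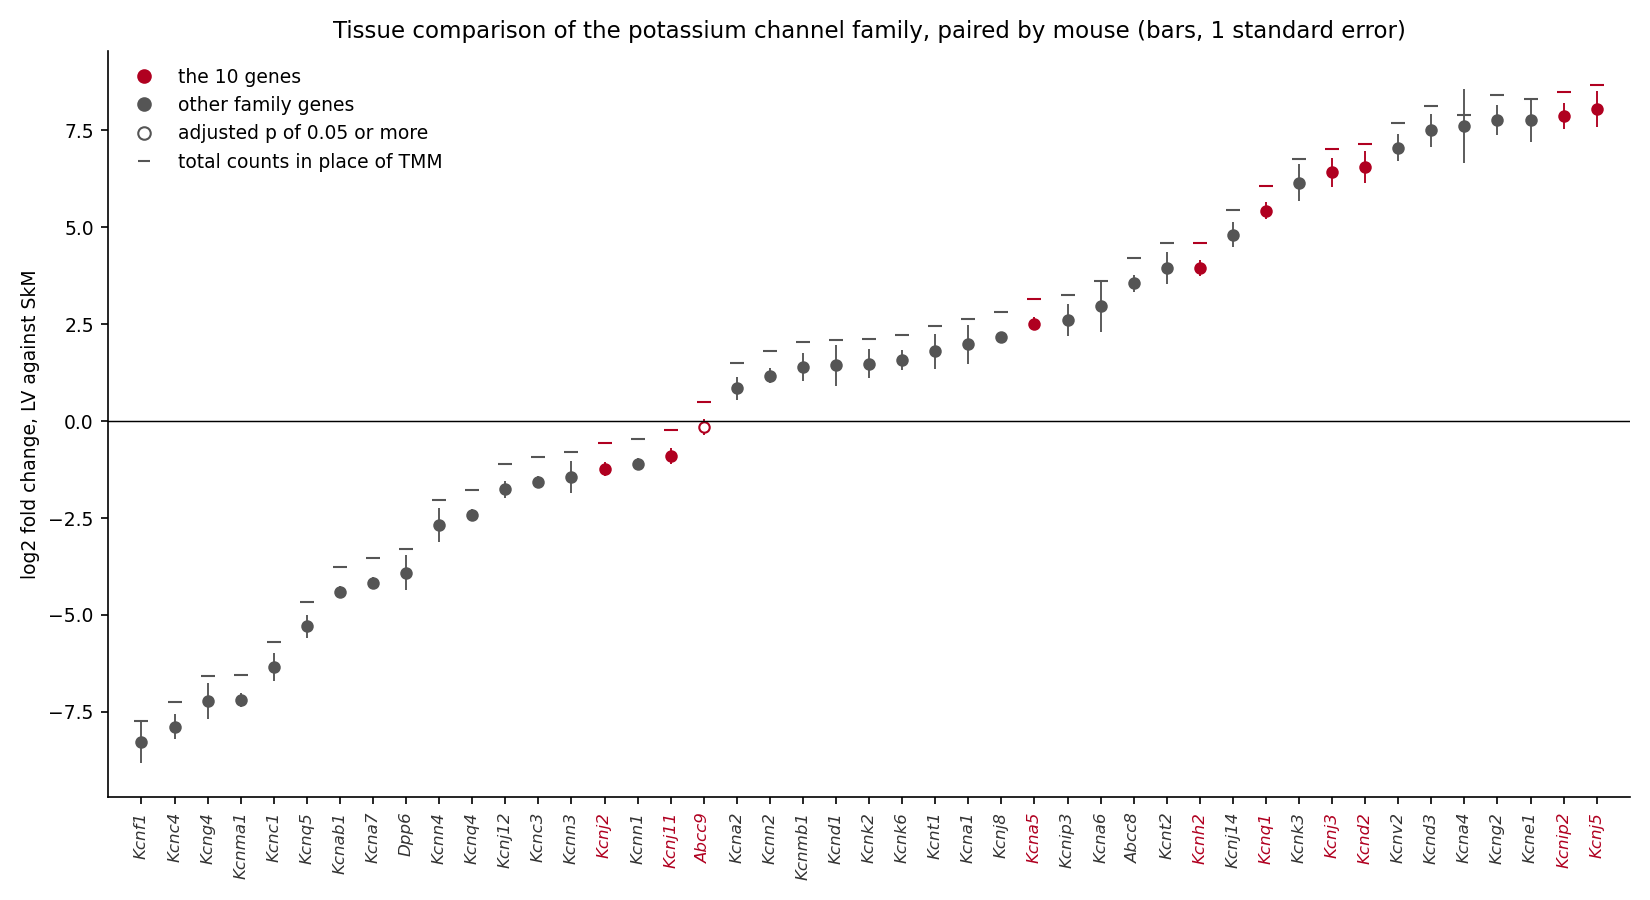
Difference between LV and SkM (log2, TMM) for the 44 genes of the potassium channel family called at an adjusted p of 0.05 and for Abcc9, with the 10 genes described here in red, bars of 1 SE and dashes for library totals. Of the 44, 27 are higher in LV and 17 lower, while Abcc9, in an open circle, changes direction with the scaling.

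Of 5 transcription factors with known roles in the expression of channel genes, 4 passed the threshold, as did 61.3% of all genes tested. Irx4 was at 57.0, 39.5, 59.5, 53.0 and 54.3 CPM in LV and at 0 to 0.504 CPM in SkM (log2 7.57, adjusted p 4.14e-06, or 8.53 without WT replicate 1). Etv1 (2.67) and Irx3 (1.02) were higher in LV, and Irx5 was lower with TMM (-0.52) but 0.13 with library totals. Irx5 was not called over all 5 mice (-0.38) or when any one of the E0del/+ mice was left out (-0.43 to -0.52). Klf15 did not pass with TMM (-0.12), while it gave 0.53 with library totals (adjusted p 0.00459) and 0.022 with TMM without E0del/+ replicate 2. Whether any of these acts on the 10 genes was not tested.

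For Kcnj5 and Kcnj2, which of the 10 genes had the largest difference in each direction over the 4 mice, the most alike genes were sought by Pearson's r of log2 CPM over 9 libraries (without WT LV 2). These points share 2 tissues of the same mice, so r is a description. For Kcnj5 they were Upk3b (r 0.994), Gpr22 (0.993) and Kcnip2 (0.993), all near 0 in SkM. For Kcnj2 they were Klhl7 (0.970), Il12rb2 (0.933) and Zim1 (0.921). The match of Kcnj5 is thus mostly the split between tissues, while Klhl7 ranged from 59.2 to 66.7 CPM in the 4 LV libraries and from 57.4 to 80.5 CPM in SkM.

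Promoters of this pair are shown because they differed in opposite directions between the tissues. The 250 bases upstream of the start are from RefSeq (GRCm38.p6), which had an entry for 8 of the 10 genes, and are written 5′ to 3′ on the strand of the gene. Capitals mark the motifs searched on both strands, the E-box (CANNTG) and the GC box (GGGCGG).
Kcnj5 (chr9:32344345-32344594, minus strand): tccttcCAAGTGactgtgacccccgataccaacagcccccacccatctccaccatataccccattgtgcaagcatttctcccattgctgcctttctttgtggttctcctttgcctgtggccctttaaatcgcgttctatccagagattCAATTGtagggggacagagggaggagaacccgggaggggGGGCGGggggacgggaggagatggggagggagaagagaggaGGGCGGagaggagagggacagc
Kcnj2 (chr11:111065914-111066163, plus strand): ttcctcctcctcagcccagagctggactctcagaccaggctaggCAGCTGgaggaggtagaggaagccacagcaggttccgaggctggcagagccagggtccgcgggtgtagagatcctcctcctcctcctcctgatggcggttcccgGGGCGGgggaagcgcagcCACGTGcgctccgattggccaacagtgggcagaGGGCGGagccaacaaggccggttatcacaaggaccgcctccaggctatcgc
Each promoter held 2 E-box and 2 GC box matches, and neither held the letters AGATAA that GATA factors are known to bind. The letters TATAAA of the classical core promoter were also absent from both. Of 32536 promoters of this length, 66.2% held an E-box, 33.0% a GC box, 9.97% the letters of the GATA site and 12.3% those of the core promoter. The share of G and C was 58.0% for Kcnj5 and 65.6% for Kcnj2, against a median of 52.4%. By these letters, the genes with opposite tissue differences did not differ. A match is a description and shows no binding.

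The WT LV 2 library was described apart. As a percent of the mean of the other 4 LV libraries, the 6 ventricle markers were at 59.5% to 74.6% in it. Among the 7 channel genes higher in LV, the share ran from 66.6% (Kcnh2) to 102% (Kcnd2), with a median of 71.2%. Kcnj5 (69.8%), Kcnq1 (66.9%), Kcnh2 and Kcnip2 (71.2%) were below all other LV libraries, while Kcna5 was at 84.3% and Kcnj3 at 88.3%. For the other 3 genes, whose mean CPM in SkM was 0.676 to 1.35 times that in LV, the share was 92.0% for Kcnj2, 95.8% for Abcc9 and 105% for Kcnj11. The 4 genes that were lowest in WT LV 2 lay in the range of the ventricle markers, and Kcnd2, Kcnj3 and Kcna5 above it.

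**Figure D4:**
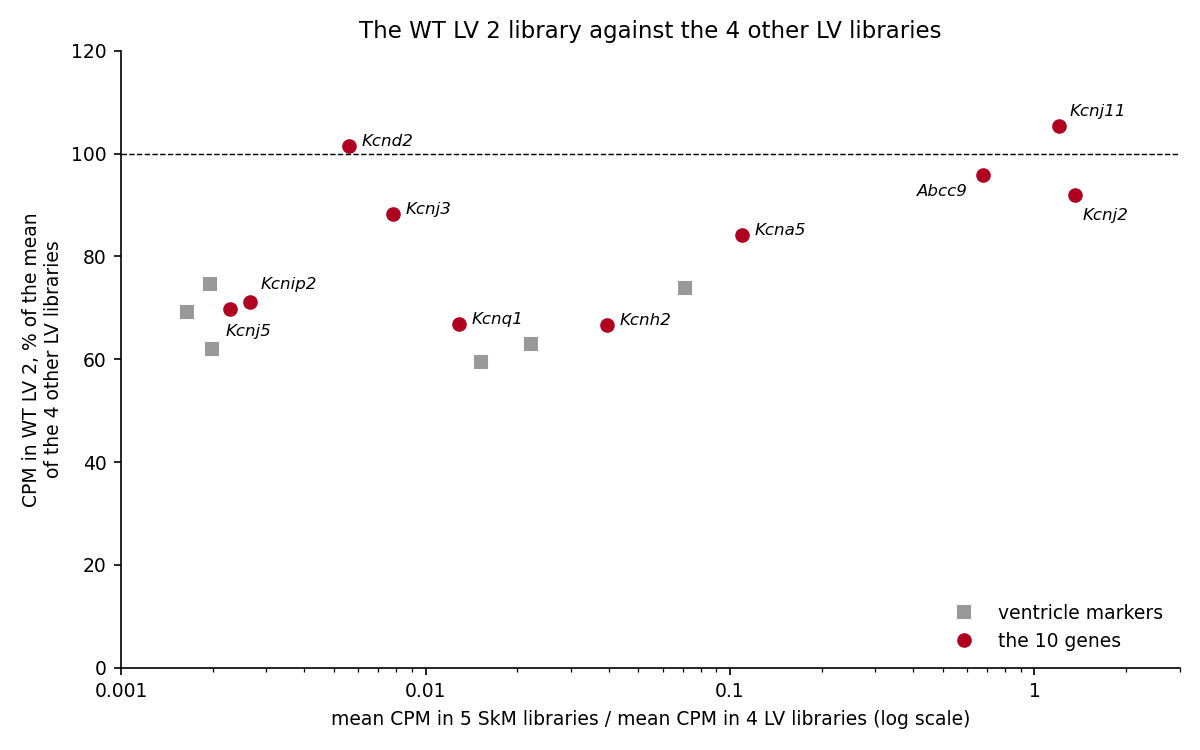
Level in WT LV 2 as a percent of the mean of the 4 other LV libraries, against the ratio of mean CPM in SkM to that in LV (log scale), for the 10 genes and 6 ventricle markers. Kcnj5, Kcnq1, Kcnh2 and Kcnip2 lie among the ventricle markers, while Kcnj2, Abcc9 and Kcnj11 lie near 100%.

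E0del/+ was compared with WT within each tissue to ask whether heterozygous loss of the Ttn element comes with a change in channel transcripts. In LV, all 10 genes were tested and 0 passed, as did 0 of all 13420 genes (0%) by edgeR, where 564 had an unadjusted p under 0.05. Leaving out 1 library gave 104 such genes without WT replicate 2, 304 without E0del/+ replicate 1, 356 without E0del/+ replicate 2, 634 without E0del/+ replicate 3 and 1630 without WT replicate 1. DESeq2 called 12 genes and edgeR with the batch as a block 5, none of them among the 10. The log2 differences of the 10 genes ran from -0.26 (Abcc9) to 0.17 (Kcnh2), with 5 above 0 and 5 below. Without WT LV 2, which leaves 1 WT library assumed to vary like the others, they ran from -0.35 (Abcc9) to 0.03 (Kcna5), with 1 above 0. Over all fits with 1 library left out, the differences of the 10 genes lay between -0.54 (Kcnd2) and 0.44 (Kcnh2). The genotypes overlapped in CPM for all 10 genes. Of all genes tested, 15.4% did not overlap, a share that leaves few in a set of 10.

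Abcc9, the one with the smallest p in LV, was at 717 and 571 CPM in WT and 623, 470 and 573 CPM in E0del/+. WT LV 1 was the highest and E0del/+ LV 2 the lowest, and the genotypes overlapped. The difference was -0.26 (SE 0.24, p 0.298 and adjusted p 0.997 by edgeR), with E0del/+ over WT at 0.868 in batch 1 and 0.823 in batch 2. Batch 3 holds no WT mouse. Under the batch block, the one of the 10 with an unadjusted p under 0.05 in LV was Kcnd2. Its difference was -0.25 without the block and -0.61 with it (unadjusted p 0.0323 by edgeR), with E0del/+ over WT at 0.866 in batch 1 and 0.574 in batch 2. Over all alternatives its adjusted p ran from 0.864 to 1, and without E0del/+ replicate 2 its difference was 0.036.

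Leaving out WT replicate 1, so that WT LV 2 alone stood for WT, gave 578 called genes of 14050 tested (4.11%), 574 of them lower in E0del/+. They included 10 of the 62 genes of the potassium channel family tested, all lower, and 0 of the 10 described here. In the comparison with both WT libraries, 564 of all 13420 genes had an unadjusted p under 0.05 by edgeR, 440 of them lower in E0del/+. Of the 51 family genes tested, 8 did (Kcna7, Kcnab1, Kcnc1, Kcnc4, Kcng4, Kcnk5, Kcnma1 and Kcnq5), all lower in E0del/+. All but Kcnk5 were among those called higher in SkM than in LV. Estimated SkM counts were also subtracted from WT LV 2, which by its construction lowers genes high in SkM. Kcnk5 alone of 52 family genes tested then had an unadjusted p under 0.05, as did 468 of all 13441 genes. Without WT LV 2, Kcne1 alone of the family did.

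In SkM, 6 of the 10 genes passed the filter on low counts, and Kcnj3, Kcnj5, Kcnd2 and Kcnip2 did not. None of the 6 passed, as did 0 of all 13154 genes (0%) by edgeR, where 114 had an unadjusted p under 0.05, and DESeq2 called 0, with 151. With the batch as a block, edgeR called 1 gene, not one of the 10, and 596 had an unadjusted p under 0.05. Leaving out 1 library gave 16 such genes without E0del/+ replicate 2, 62 without E0del/+ replicate 1, 291 without E0del/+ replicate 3, 294 without WT replicate 2 and 1596 without WT replicate 1. The differences ran from -0.17 (Kcna5) to 0.61 (Kcnj2). In CPM the genotypes overlapped for all 10 genes, those not tested included. Of all genes tested, 11.4% did not overlap, a share that leaves few in so small a set. Over all fits with 1 library left out, the differences of the 6 genes lay between -0.39 (Kcna5) and 1.26 (Kcnq1, with 5 to 14 counts per library). Without WT 2, 8 of the 10 genes were tested, from -1.90 (SE 1.52, Kcnd2) to 2.65 (SE 2.53, Kcnj5), both with few counts. Of the family, Kcnq5, at 22.8 and 10.8 CPM in WT and 37.5, 31.0 and 27.6 CPM in E0del/+, had an unadjusted p under 0.05 in the fit without a block. With the batch as a block, 7 family genes did (Dpp10, Dpp6, Kcnf1, Kcng4, Kcnj2, Kcnn3 and Kcnq5), 3 of them higher and 4 lower in E0del/+, and none passed the adjusted threshold.

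Kcnj2 in SkM was at 75.5 and 45.3 CPM in WT and 96.4, 106 and 67.1 CPM in E0del/+. WT SkM 2 was the lowest, E0del/+ SkM 3 lay between the WT libraries, and the others were higher. The difference was 0.61 (SE 0.26, p 0.0608 and adjusted p 0.99977 by edgeR), with E0del/+ over WT at 1.28 in batch 1 and 2.34 in batch 2. Under the batch block the difference rose to 0.79 (unadjusted p 0.0107 by edgeR), and over all alternatives the adjusted p ran from 0.417 to 1. Without WT replicate 2 the difference was 0.39, and without WT replicate 1 it was 0.87.

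The 4 markers of slow or oxidative fibres summed to 2008, 619, 2877, 3909 and 1086 CPM in these SkM libraries, most of it Myh2. Their order from WT SkM 2 to E0del/+ SkM 2 was that of Kcnj2 in all 5 libraries. In LV without WT LV 2, where Myh7 led, they summed to 1658 to 2098 CPM. Xist was at 397, 0.343, 364, 278 and 0.422 CPM in SkM, and the Y-linked Ddx3y was at 12.5, 94.1, 0.369, 0.333 and 108 CPM. WT 2 and E0del/+ 3, the mice without Xist, were also those with the lowest Kcnj2, and WT SkM 1 held counts of both kinds, while WT LV 1, of the same mouse, had 518 CPM of Xist and 0.384 CPM of Ddx3y. Kcnj2 with Xist as a block, an alternative chosen after seeing the data, differed by 0.51 (unadjusted p 0.00976 by edgeR, against 0.0608 without it). The part of fibre type or sex in the level of Kcnj2 was not tested further.

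The genotype effect in LV was compared with that in SkM over all 10 libraries with the mouse as a block. None of the 10 genes passed, nor did any of 14327 genes (0%) by edgeR, where 238 had an unadjusted p under 0.05, and DESeq2 called 0, with 254. The smallest p among the 10 was that of Kcnj2, with a difference of -0.67 (SE 0.30, p 0.0623 and adjusted p 1 by edgeR), or -0.58 without both libraries of WT 2.

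**Figure D5:**
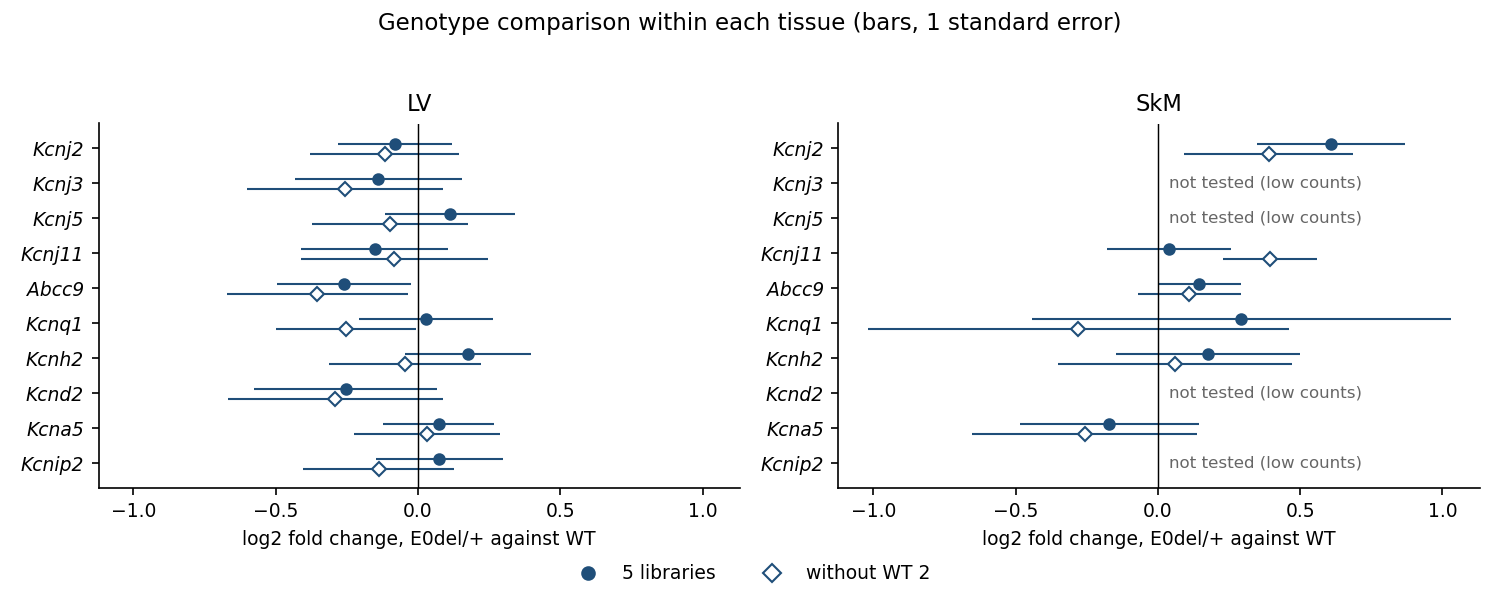
Difference between E0del/+ and WT (log2, bars 1 SE) for the 10 genes in LV and in SkM, with all 5 libraries and without WT 2, leaving out in SkM the 4 genes not tested with 5 libraries. The values shown run from -0.26 to 0.17 in LV and from -0.17 to 0.61 in SkM with 5 libraries, and from -0.35 to 0.03 and from -0.28 to 0.39 without WT 2.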

How the data were processed

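The 10 libraries, 1 per tissue from 2 WT and 3 E0del/+ mice, were grouped by the labels. The authors deposited a raw count and an RPKM value per gene and library; the submitters' notes name STAR, DESeq2 and mm10 with no version or role. The deposited RPKM values equal the count per kb of exon and 1000000 gene counts and were not tested. Depth was 11010021 to 17484873 counts, so that 3 counts, the limit that a count of 0 allows, are 0.172 to 0.272 CPM.

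Tests used edgeR 4.0.16 (R 4.3.3): filterByExpr, TMM, quasi-likelihood test, Benjamini-Hochberg adjustment over all genes tested, threshold 0.05. Tissues were paired by mouse over 4 mice, and genotypes were compared in each tissue and by the interaction. The mouse of a batch was no covariate for genotype, and the batch block was an alternative. Deviations from the group means of batch partners correlated across genes at 0.0765 and -0.138 in LV and at 0.590 and 0.322 in SkM. These values cannot decide whether the batch belongs in the genotype fit. The WT libraries of a tissue are a pair, so their deviations from the group mean are mirror images. In LV, these deviations also hold the SkM transcripts of a WT library. The values in LV therefore do not show that a batch effect is absent. In SkM both values were positive, and they give no reason to leave the batch out there. Subunit ratios used exact permutation in Python 3.11.15 with scipy 1.17.1, and figures matplotlib 3.10.9. The fits were tested on simulated data.

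Alternatives were DESeq2 1.42.0 and its size factors, library totals, no filter, all 5 mice, no mouse block, the batch block, 1 fit over 10 libraries, no added count and each library or mouse left out. After seeing the data, Xist (over 100 CPM) as a block and subtraction of estimated SkM counts from WT LV 2 were added. The members, gene lists and marker lists were chosen with earlier results of these data known. Genes named were the 10, their partners, the 5 family genes with the largest difference each way, for genotype the member with an unadjusted p under 0.05 or else the smallest, and the 3 most alike to Kcnj5 and Kcnj2. Family genes named for genotype and the antisense transcripts were chosen after their values were seen. The pore sequence of Kcnq1 is not reported here.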

Additional observations from a re-analysis of the deposited data

Results flagged for a closer look

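In 20 groups of 5 libraries (10 genes in 2 tissues), 2 libraries lay far from the other 4 of their group. Chance alone gives about 1 in 20. Kcnj5 in E0del/+ SkM 1 was at 1.11 CPM, from 18 counts, while the other SkM libraries were at 0 to 0.286 CPM. The 6 ventricle markers, of which Actc1 was the most abundant in SkM, summed to 1449 CPM in that library and to 2282, 233, 1600 and 204 CPM in WT SkM 1, WT SkM 2, E0del/+ SkM 2 and E0del/+ SkM 3. Myh6, Tnni3 and Tnnt2 were highest in E0del/+ SkM 1, Myl2 and Myl3 in E0del/+ SkM 2 and Actc1 in WT SkM 1. The part of ventricle transcripts in the Kcnj5 level was not tested. Kcnj11 in E0del/+ LV 2 was at 143 CPM, while the other LV libraries were at 205 to 220 CPM.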

How the results depend on the processing

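For 42 results, 392 values were computed under alternatives, of which 376 kept their direction and side of the threshold, or for counts and ratios stayed within 1.5 times or 1 SD. Abcc9 between tissues changed from -0.16 to 0.49 with library totals, and leaving out 1 mouse gave -0.29 to 0.071 (without E0del/+ replicate 2), and Kcnj11 from -0.89 to -0.24, not called, with library totals. The other 8 genes kept their direction and call in every alternative of the tissue comparison, as did the 10 other family genes named there. Of the transcription factors, Irx5 went from -0.52 to 0.13 with library totals and was not called over all 5 mice or without any one E0del/+ mouse, and Klf15 from -0.12 to 0.53 with library totals and, leaving out 1 mouse, gave -0.23 to 0.022 (without E0del/+ replicate 2). By genotype in LV, Kcnd2 at -0.25 gave -0.54 to 0.036 (without E0del/+ replicate 2) when 1 library was left out. Of the 10 genes, Abcc9 alone kept its direction in LV in all such fits (-0.36 to -0.10). Genes called in LV by genotype went from 0 to 12 with DESeq2, to 5 with the batch block and, leaving out 1 library, from 0 to 578 (without WT replicate 1). In SkM the batch block gave 1. With WT at 1 library, it is assumed to vary like the others. Subunit pairs with 1 sign in all 4 mice were 6, or 3 with no count added, since a ratio with a count of 0 has no value. The cause of the other changes was not tested. Genes called between tissues numbered 6895 to 9381. With 2 WT mice, an exact permutation over 2 against 3 libraries could not give a p under 0.1. In SkM, Kcnj3, Kcnj5, Kcnd2 and Kcnip2 had 0 to 18 counts per library, few at the depth of these libraries, which limits the precision of their levels there.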
